A study of Mus musculus with 9 samples.

Results

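The genes described here encode the proteases that cut the extracellular matrix, the lysosomal cathepsins, and the inhibitors of both. They were taken from the count table by symbol: Adam or Mmp followed by a number, Adamts and Adamts-like genes, Timp genes, every Serpin gene, and Cts followed by a single letter with or without a digit. The rule gave 124 of the 14052 genes in the table. RNA was sequenced from 5 tumour areas of kidney cortex, named L4, R2, R3, R4 and R5, and from 4 areas of normal kidney cortex, named L1, L2, R1 and R2. The tumour mice carried floxed alleles of Vhl and Pbrm1 with the Ksp-Cre transgene on a mixed C57BL/6, BALB/c and 129 background, and the normal areas came from wild-type C57BL/6 mice. Both groups were on a normal diet and about 1 year old.

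The Ksp promoter belongs to Cdh16, a cadherin gene of renal tubules, so recombination is directed to tubule cells, while fibroblasts, vessels and immune cells of a tumour keep intact alleles. The sample descriptions hold one number throughout the tumour group and another throughout the normal group. The areas of a group may thus share 1 animal, in which case the p-values measure only how areas vary. Strain went with the group, and an effect of strain and one of the tumour genotype cannot be told apart. Total counts ran from 5143527 to 8250261 per library. One count corresponded to 0.136 to 0.216 CPM (counts relative to library size, scaled with edgeR's TMM factors). Vhl stood at 60.0 ± 11.95 CPM in the tumour and 104 ± 4.69 CPM in the normal areas (log2 fold change -0.79 ± 0.13, adjusted p = 0.000248 in edgeR), with all 5 tumour areas, at 45.1 to 75.7 CPM, under all 4 normal ones. Pbrm1 stood at 136 ± 21.5 CPM against 155 ± 10.1 CPM and did not pass the test (adjusted p = 0.142 in edgeR). Reads of exons outside a deleted part count towards both genes. Proximal tubule markers, 6 of 6 lower in the tumour areas, were still summed to 7948 to 15304 CPM there against 29565 to 31540 CPM in the normal areas.

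Matrix metalloproteases (MMPs) are zinc enzymes made as inactive precursors, mostly secreted and in part anchored in the cell membrane, and tissue inhibitors of metalloproteases (TIMPs) block them. ADAM proteases sit in the membrane and release growth factors and receptors from it, and the secreted ADAMTS proteases process procollagens and proteoglycans. Cathepsins are mainly lysosomal proteases. Serpins are suicide inhibitors, chiefly of serine proteases, although some, such as the collagen chaperone Serpinh1 and the corticosteroid carrier Serpina6, inhibit no protease. In kidney these enzymes are known from the remodelling of basement membrane and interstitium, from protein breakdown in the lysosomes of the proximal tubule, and from fibrosis and tumour growth.

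The start regions of 3 members on which the results turn are printed to show the DNA just before and at the transcription start of the MMP with the largest change (Mmp3), of the membrane MMP at the highest level per kilobase in these areas (Mmp14) and of an abundant cathepsin that did not pass the test (Ctsl). Each window runs from 250 bases before to 50 bases after the start and was taken from RefSeq on GRCm38.p6, while the counts were made on mm9. Capitals mark the letters of 3 motifs searched on both strands: TGANTCA, the AP-1 element, CACGTG, an E-box, and ACGTG or GCGTG, the core bound by hypoxia-inducible factors, which also matches inside the E-box.
Mmp3 (chr9:7445572-7445871, plus strand): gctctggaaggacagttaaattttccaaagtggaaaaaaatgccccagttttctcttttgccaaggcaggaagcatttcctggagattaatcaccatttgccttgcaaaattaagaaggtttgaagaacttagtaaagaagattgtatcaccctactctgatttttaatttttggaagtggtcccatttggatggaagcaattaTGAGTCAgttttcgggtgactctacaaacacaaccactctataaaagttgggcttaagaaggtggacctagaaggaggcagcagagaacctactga
Mmp14 (chr14:54431348-54431647, plus strand): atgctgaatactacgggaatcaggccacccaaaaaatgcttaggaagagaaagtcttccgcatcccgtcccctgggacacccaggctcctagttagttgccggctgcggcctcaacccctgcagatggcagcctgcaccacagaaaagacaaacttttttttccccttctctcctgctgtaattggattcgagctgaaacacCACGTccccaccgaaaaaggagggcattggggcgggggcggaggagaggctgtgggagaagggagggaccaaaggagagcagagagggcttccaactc
Ctsl (chr13:64370471-64370770, minus strand): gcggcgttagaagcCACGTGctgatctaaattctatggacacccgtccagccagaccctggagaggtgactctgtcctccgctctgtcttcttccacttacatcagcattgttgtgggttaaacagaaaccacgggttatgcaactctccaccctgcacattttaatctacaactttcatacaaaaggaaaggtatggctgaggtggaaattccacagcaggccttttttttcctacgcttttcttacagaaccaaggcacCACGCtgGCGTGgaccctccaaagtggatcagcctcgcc
The Mmp3 window held an AP-1 match 46 bases upstream of the start, the Mmp14 window a hypoxia core 48 bases upstream, and the Ctsl window an E-box 236 bases upstream and further cores 12 and 19 bases downstream. Windows were found for 36 of the 51 tested members, 40 windows in all. The AP-1 letters were present in 9 of them (22.5%), 4 of which belong to the near-identical Serpina1a to Serpina1d genes, against 5.50% of the 6751 windows of tested genes and 7.81% of all 32851 windows. The hypoxia core was present in 52.5% of member windows, 61.0% of those of tested genes and 43.8% of all, and the E-box in 12.5%, 10.04% and 7.15%. A match describes letters in the window and does not show binding.

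Across the families, 34 of the 51 members with enough counts to be tested were higher in the tumour areas, 7 were lower and 10 did not pass at an adjusted p under 0.05 (edgeR, adjusted over all 7020 tested genes). Of all tested genes 74.6% passed, 39.3% higher and 35.3% lower, so that passing in itself was common here, while the members divided more unevenly by direction. Changes of at least 2-fold numbered 26 higher and 4 lower, where 17.3% and 12.6% of all tested genes changed so far. All tumour areas lay above all normal areas in 31 members and below them in 5, against 34.8% and 33% of tested genes. The median log2 fold change of the tested members was 1.09, and that of all tested genes 0.06. A set of 6 tested members, namely Mmp3, Mmp7, Ctse, Serpina10, Serpina3b and Serpina6, had under 1 CPM in every normal area and were tested only through their tumour counts. Further members, Adamts4, Ctsw, Mmp25 and Serpina1b among them, had at most 1.50 CPM in every normal area. They too passed the count filter only through their tumour areas. Such members could hardly be called lower, and the counts and the median above include them. Of the 29 tested members with a mean of at least 10 CPM over all 9 areas, 20 were higher and 3 lower (69.0% and 10.3%). Among the 5285 tested genes at that level 38.5% were higher and 38.7% lower. Mmp3 belongs to these 29 members through its tumour areas. In bulk tissue, fewer cells of a type and less RNA per cell cannot be told apart.

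**Figure D1:**
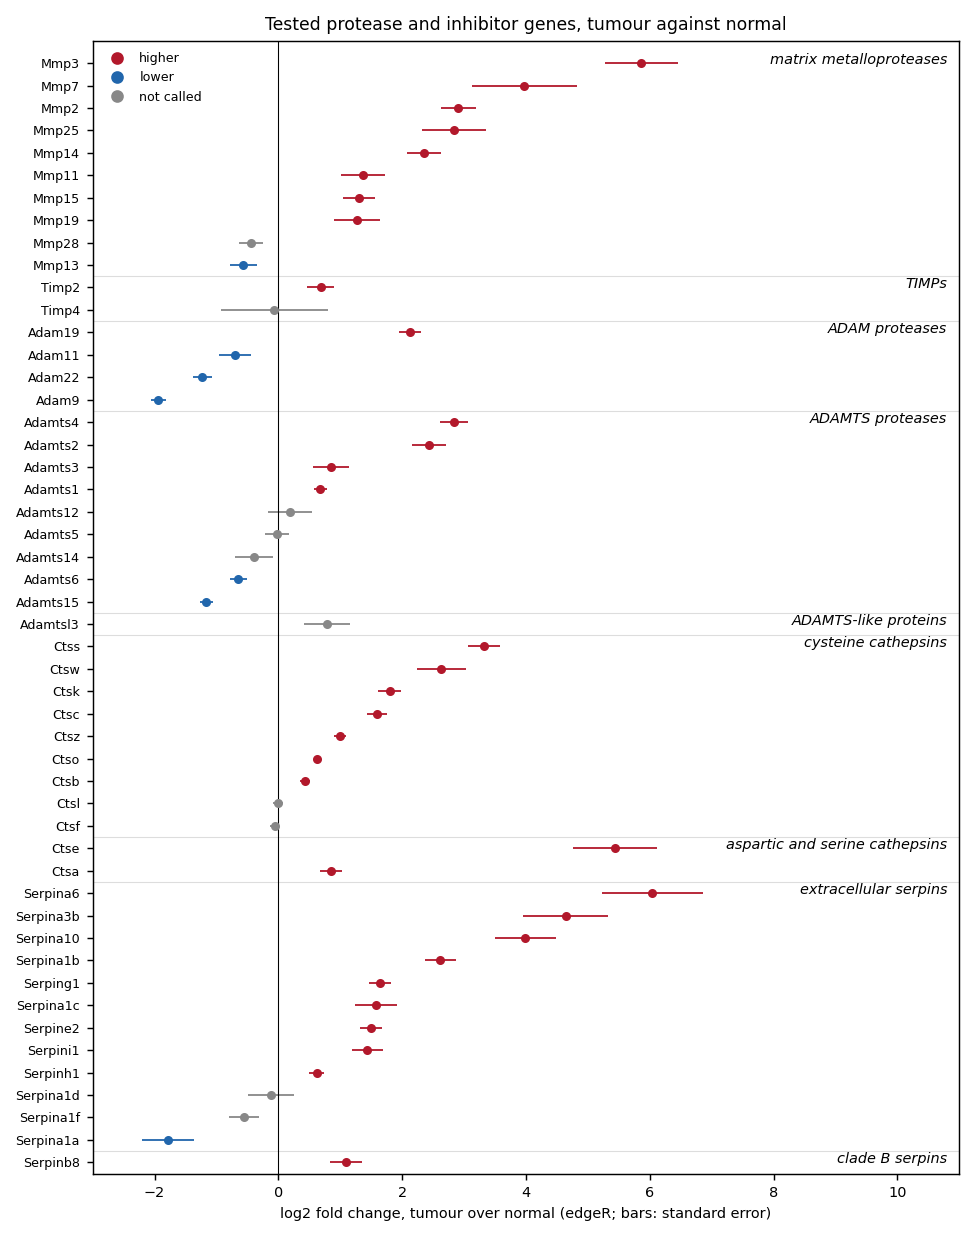
Log2 fold change (tumour over normal, edgeR) of 50 tested protease and inhibitor genes, grouped by family. Points are estimates and bars standard errors, red for genes higher, blue for the 7 lower and grey for the 10 that did not pass, and the highest points are Serpina6 (6.04), Mmp3 (5.86) and Ctse (5.44).

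Among the MMPs, 8 of 10 tested members were higher in the tumour areas, 1 was lower and 1 did not pass, with a median log2 fold change of 1.86. These are 80% higher and 10% lower, beside 39.3% and 35.3% of all tested genes. Mmp3, or stromelysin 1, which cuts proteoglycans, laminin and fibronectin and activates other MMP precursors, measured 51.1 (L4), 16.8 (R2), 19.1 (R3), 17.3 (R4) and 40.6 (R5) CPM in the tumour areas and 0.649 (L1), 0.682 (L2), 0.166 (R1) and 0.405 (R2) CPM in the normal ones. All tumour areas were far above the normal areas, and L4 and R5 were the 2 highest. The log2 fold change was 5.86 ± 0.59 (adjusted p = 7.57e-06 in edgeR), and 5.16 without L4 and R5. Beside a mean level, ± gives the SD (n = 5 tumour or n = 4 normal areas), and beside a log2 fold change the standard error of the fit.

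Mmp2, the gelatinase that degrades denatured collagen and basement membrane collagen, reached 102 (L4), 49.3 (R2), 59.5 (R3), 37.8 (R4) and 65.3 (R5) CPM, and 8.87, 6.82, 8.47 and 9.51 CPM in normal L1, L2, R1 and R2. Its groups did not overlap, and the log2 fold change was 2.91 ± 0.29 (adjusted p = 7.03e-06 in edgeR). Mmp14, the membrane enzyme that activates the Mmp2 precursor, rose with it, from 26.5 ± 2.89 to 135 ± 53.3 CPM. Its tumour areas stood at 218 (L4), 116 (R2), 116 (R3), 75.8 (R4) and 151 (R5) CPM and its normal areas at 24.4 to 30.7 CPM, a log2 fold change of 2.36 ± 0.28 (adjusted p = 2.36e-05 in edgeR). The lowest tumour area of either gene was R4, still above every normal area.

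Mmp7, or matrilysin, an epithelial MMP, was nearly uncounted in normal cortex, at 0 to 0.409 CPM, and measured 4.32 (L4), 2.68 (R2), 4.90 (R3), 0.436 (R4) and 2.89 (R5) CPM in the tumours. The tumour areas were all higher, but R4 lay close to the highest normal area (log2 fold change 3.98 ± 0.85, adjusted p = 0.00157 in edgeR, and 5.16 without normal L2). Smaller amounts of Mmp25, a membrane MMP known from leukocytes, went up from 0.518 ± 0.676 to 4.36 ± 0.876 CPM (2.84 ± 0.52, or 4.36 with normal L2 left out). Mmp15, another membrane MMP, rose by 1.30 ± 0.26, Mmp11 by 1.36 ± 0.36 and Mmp19 by 1.27 ± 0.37 on the log2 scale. The Mmp11 groups overlapped, with tumour R4 at 3.63 CPM and normal L1 at 4.11 CPM. The Mmp19 change was 0.65 without L4 and R5 and did not pass over areas with the letter R alone (adjusted p = 0.0749 in edgeR). Mmp28, at 8.72 ± 2.73 against 11.9 ± 1.04 CPM, did not pass (adjusted p = 0.0691 in edgeR). It did pass, as lower, without L4 (L4 measured 13.5 CPM and the other tumour areas 6.72 to 8.05 CPM).

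Collagenase 3, encoded by Mmp13, was the 1 MMP called lower. Its values were 2.89 to 5.08 CPM in the tumour and 4.25 to 7.50 CPM in the normal areas, which overlap, and the log2 fold change was -0.57 ± 0.22 (adjusted p = 0.0367 in edgeR). The call rested on single areas. Leaving out tumour L4, R2 or R5, or normal L1, L2 or R1, each brought the adjusted p above 0.05 (highest 0.123, without normal L2), as did leaving out L4 and R5 together (0.133).

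**Figure D2:**
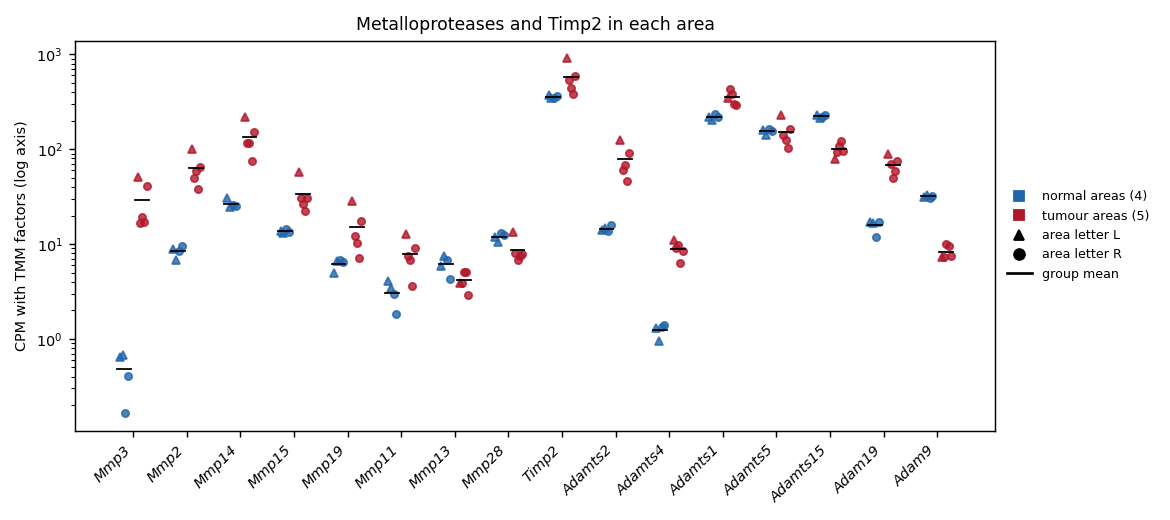
CPM (log axis) of 15 metalloproteases and Timp2 in each area, blue for the 4 normal and red for the 5 tumour areas, triangles for the area letter L, circles for R and black lines for group means. Mmp3 shows the widest gap between the groups (0.166 to 0.682 CPM against 16.8 to 51.1 CPM), while Adamts5, Mmp11, Mmp13 and Mmp28 overlap and Adamts15 and Adam9 lie lower in the tumour areas.

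The only TIMP called was Timp2, with a smaller change than any MMP called higher. Timp2, which blocks MMPs and also takes part in Mmp2 activation on the cell surface, measured 907 (L4), 540 (R2), 438 (R3), 382 (R4) and 589 (R5) CPM in the tumours and 373 (L1), 347 (L2), 344 (R1) and 361 (R2) CPM in the normal areas. The tumour areas were all higher, R4 by little, and the log2 fold change was 0.68 ± 0.21 (adjusted p = 0.0144 in edgeR), 0.46 without L4 and 0.36 without L4 and R5. Timp4 stood at 0.290 to 7.66 CPM in the tumour and 0.405 to 4.09 CPM in the normal areas and did not pass (-0.07 ± 0.86), and Timp1 had 1 count in all 9 libraries. Summed per kilobase of transcript, a scale on which genes can be compared, the MMPs stood at 44.4 ± 2.63 CPM per kb in normal and 193 ± 76.7 CPM per kb in tumour areas, and the 3 TIMPs of the table at 162 ± 5.57 and 259 ± 93.4 CPM per kb. Timp3 was not analysed here.

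Fibroblast and pericyte markers moved with these genes: 6 of 8 tested markers were higher and 2 lower, and their summed level was 1090 to 3597 CPM in the tumour and 270 to 306 CPM in the normal areas. Col1a1, the collagen gene of that list, measured 970 (L4), 432 (R2), 497 (R3), 289 (R4) and 720 (R5) CPM, with the same highest pair and the same lowest area as Mmp2 and Mmp14. The receptors Pdgfra and Pdgfrb, which also mark these cells, were lower (log2 fold changes -1.68 ± 0.15 and -0.65 ± 0.18). The part of these cells in the MMP changes was not tested.

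Of the ADAM proteases 4 could be tested, of which 3 were lower and 1 higher, beside 35.3% and 39.3% of all tested genes. With libraries scaled by size alone 2 were lower. Adam9, a widely expressed membrane sheddase, fell from 31.2 (L1), 33.3 (L2), 30.6 (R1) and 32.4 (R2) CPM to 7.24 (L4), 7.38 (R2), 9.99 (R3), 9.58 (R4) and 7.46 (R5) CPM. The 2 groups lay far apart with little spread within either (log2 fold change -1.94 ± 0.12, adjusted p = 3.51e-07 in edgeR). Adam22, which lacks protease activity and serves as a receptor in neurons, fell from 45.1 ± 3.80 to 19.3 ± 4.38 CPM (-1.23 ± 0.15). Adam11, also without protease activity, was low and its groups overlapped, at 1.31 to 2.90 against 2.16 to 3.68 CPM. Its call (-0.69 ± 0.26, adjusted p = 0.031 in edgeR) was lost without normal L1, L2 or R2 and without tumour R2, R4 or R5 (highest adjusted p = 0.0821).

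Adam19, a sheddase of neuregulin, was the exception, at 88.8 (L4), 69.3 (R2), 50.3 (R3), 59.5 (R4) and 75.3 (R5) CPM in the tumour against 12.0 to 17.2 CPM in the normal areas (2.13 ± 0.18, adjusted p = 2.48e-06 in edgeR). Noncoding genes lie on its opposite strand, and the library kit does not mark strand, so their reads cannot be told apart. Adam17, the main sheddase of tumour necrosis factor, had 0 or 1 count in every library, and Adam8 had none. Adam10 was not analysed here. Of 164 genes from families that nearly all cells use (ribosomal proteins, proteasome, complex I, RNA polymerase II and splicing proteins), 58 also had no count, and a count of 0 here is therefore no sign that a gene is unexpressed.

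Of 9 tested ADAMTS proteases 4 were higher (44.4%), 2 lower (22.2%) and 3 did not pass, beside 39.3% higher and 35.3% lower of all tested genes. Adamts2, which removes the amino-terminal propeptide of fibrillar procollagens, rose from 14.1, 14.6, 13.6 and 15.8 CPM in normal L1, L2, R1 and R2 to 126 (L4), 60.4 (R2), 68.6 (R3), 45.9 (R4) and 91.0 (R5) CPM. No area overlapped, L4 and R5 were again highest, and the log2 fold change was 2.43 ± 0.28 (adjusted p = 2.02e-05 in edgeR). Adamts4, an aggrecan- and versican-cleaving enzyme, rose from 1.25 ± 0.203 to 8.92 ± 1.81 CPM (2.84 ± 0.23, adjusted p = 1.86e-06 in edgeR). Adamts1, of similar substrate range and far more abundant, rose from 220 ± 12.7 to 352 ± 55.1 CPM (0.68 ± 0.11).

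Its genomic neighbour Adamts5 did not pass, at 104 to 227 CPM against 141 to 163 CPM (-0.02 ± 0.19). Without tumour L4 and R5 it did pass, as lower (-0.32, adjusted p = 0.0146 in edgeR). Adamts15 fell from 224 ± 6.90 to 99.8 ± 16.6 CPM (-1.16 ± 0.11, adjusted p = 4.42e-06 in edgeR) and Adamts6 from 9.03 ± 1.05 to 5.75 ± 0.604 CPM (-0.65 ± 0.14), both without overlap. The procollagen II processing enzyme Adamts3 was called higher from 1.30 to 2.83 CPM in normal and 2.01 to 4.36 CPM in tumour areas, which overlap (0.86 ± 0.29, adjusted p = 0.0213 in edgeR). That call was lost without normal L1, L2 or R1 (highest adjusted p = 0.0630). Adamts12, at 1.68 ± 0.780 and 1.52 ± 0.339 CPM, and Adamts14, at 3.79 ± 1.45 and 5.10 ± 1.57 CPM in tumour and normal areas, did not pass. Per kilobase, the ADAMTS proteases summed to 213 ± 22.1 CPM in tumour and 170 ± 6.40 CPM in normal areas. Of the ADAMTS-like proteins, which have no protease domain, 1 of 5 could be tested. This was Adamtsl3 (0.78 ± 0.37, adjusted p = 0.0768 in edgeR), and in that fit 0 members of the family reached an unadjusted p of 0.05, with 0 called by DESeq2. It did pass, as higher, with the area letter as a covariate (1.01, adjusted p = 0.0155 in edgeR), with libraries scaled by size alone (1.09, 0.0269) and without tumour R4 (0.94, 0.0318), while without L4 and R5 the estimate was 0.11.

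Of 9 tested cysteine cathepsins 7 rose (77.8%, beside 39.3% of all tested genes), and so did both other tested cathepsins. None fell (0 lower at an unadjusted p of 0.05 in edgeR and 0 in DESeq2), where 35.3% of all tested genes were lower. The largest rise among cysteine cathepsins was that of Ctss, which trims the invariant chain in antigen-presenting cells. It measured 61.7 (L4), 42.1 (R2), 33.0 (R3), 29.5 (R4) and 50.5 (R5) CPM in the tumour and 5.41 (L1), 4.50 (L2), 3.49 (R1) and 4.05 (R2) CPM in the normal areas. The lowest tumour area was well above the highest normal one, with a log2 fold change of 3.32 ± 0.26 (adjusted p = 1.34e-06 in edgeR). Its neighbour on the chromosome, Ctsk, the collagen-degrading cathepsin of osteoclasts, rose from 7.46 ± 1.14 to 26.1 ± 5.69 CPM (1.80 ± 0.19). Cd74, the invariant chain itself, rose from 23.1 ± 1.98 to 109 ± 21.2 CPM (2.23 ± 0.15).

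Ctsc, which activates the serine proteases of granules, rose from 78.2 ± 5.37 to 235 ± 57.1 CPM (1.59 ± 0.17, adjusted p = 1.01e-05 in edgeR). Ctsw, a cathepsin of natural killer and cytotoxic T cells, measured 8.77 (L4), 5.20 (R2), 4.90 (R3), 3.49 (R4) and 8.98 (R5) CPM against 0.607 to 1.36 CPM (2.63 ± 0.39, adjusted p = 0.000134 in edgeR). It overlaps Fibp. The same 2 areas, L4 and R5, were highest in the summed T and natural killer cell markers. That sum ran from 105 to 260 CPM in the tumour and 7.14 to 10.6 CPM in the normal areas, 4 of 4 tested genes higher. Most of it was Cd4 (57.6 to 141 CPM in the tumour areas) and Cd3e (40.3 to 102 CPM). Nkg7, also in the list, was higher (2.67 ± 0.35). Cd8a (5 tumour counts and 1 normal count) and Gzma (11 and 7) were not tested, and Ncr1 was at 0. Macrophage and dendritic cell markers, 5 of the 10 listed being in the table, summed to 60.8 to 121 CPM in the tumour and 26.4 to 35.1 CPM in the normal areas. Of these, 3 of 4 tested genes were higher and none was at 0. Csf1r did not pass (0.32 ± 0.16, adjusted p = 0.0974 in edgeR). Cd163, which was not tested, went the other way, with 8 tumour and 23 normal counts. B and plasma cell markers summed to 298 to 809 CPM in the tumour, again highest in L4 and R5, and to 2.83 to 5.19 CPM in the normal areas, 3 of 3 tested genes higher and none at 0. Neutrophil markers, none of which could be tested, summed to 0.168 to 1.39 CPM in the tumour and at most 0.405 CPM in the normal areas, and Mpo was at 0. The part of these cells in the cathepsin changes was not tested.

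The lysosomal cathepsins that nearly every cell makes changed less. Ctsb, the most abundant, rose from 2218 (L1), 2222 (L2), 2220 (R1) and 2264 (R2) CPM to 3238 (L4), 3316 (R2), 2829 (R3), 2796 (R4) and 2873 (R5) CPM. The groups were clear of each other although the change was small (0.43 ± 0.08, adjusted p = 0.000522 in edgeR). Ctsz, an exopeptidase, doubled from 345 ± 20.0 to 688 ± 90.4 CPM (1.00 ± 0.09), and Ctso rose from 112 ± 3.42 to 173 ± 5.62 CPM (0.63 ± 0.05), with the lowest spread over tumour areas of all tested members (coefficient of variation 3.26%). Ctsl stood at 766 ± 87.5 CPM in the tumour and 769 ± 22.4 CPM in the normal areas (-0.01 ± 0.08, adjusted p = 0.954 in edgeR), and Ctsf at 78.3 ± 7.78 and 81.6 ± 1.65 CPM (-0.06 ± 0.07). With libraries scaled by their size alone, Ctsl (0.29, adjusted p = 0.00967 in edgeR) and Ctsf (0.23, adjusted p = 0.00792 in edgeR) both passed as higher, making 9 of 9 cysteine cathepsins. That scaling moved the median of all genes from 0.06 to 0.35 and the higher share of calls from 52.7% to 68.9%.

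On the scale per kilobase the 16 cathepsins of the table summed to 1928 ± 32.2 CPM in normal and 2704 ± 213 CPM in tumour areas. Ctsb made up 50.9 ± 0.584% of that sum in normal and 49.0 ± 1.10% in tumour areas. The Ctsl share was 24.8 ± 0.340% in normal and 17.6 ± 1.57% in tumour areas and the Ctsz share 12.4 ± 0.549% and 17.6 ± 1.26%, with no overlap of the groups for either, and in the tumours the shares of the 2 genes were alike. These shares were not tested, and with the longest transcript of each gene as its length the Ctsl share was 13.2% and 8.53%. Ctsd and Ctsh, 2 other major lysosomal cathepsins, were not analysed here, so the sum is not that of all cathepsins.

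**Figure D3:**
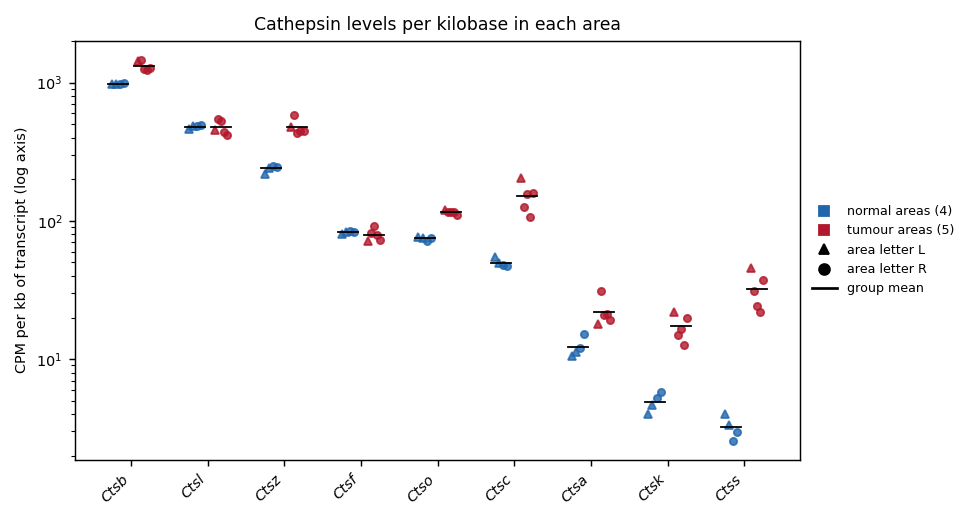
CPM per kilobase of transcript (log axis) of 9 cathepsins in each area, blue for the 4 normal and red for the 5 tumour areas, triangles for the area letter L, circles for R and black lines for group means. Ctsb is highest in both groups, Ctsl and Ctsf overlap between the groups, and Ctss shows the widest gap of those drawn.

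The aspartic cathepsin Ctse, known from stomach epithelium and immune cells, had 152 counts in the tumour and 2 in the normal areas. The tumour areas measured 8.07 (L4), 5.37 (R2), 2.36 (R3), 3.34 (R4) and 3.96 (R5) CPM, and the normal areas 0, 0, 0.166 and 0.202 CPM. The pooled ratio was 54.2 (95% exact interval 14.8 to 452, counting error only), and the fitted log2 fold change 5.44 ± 0.68 (adjusted p = 4.00e-05 in edgeR), or 4.21 over areas with the letter R alone. Ctsa, the serine carboxypeptidase that protects beta-galactosidase and neuraminidase in the lysosome, rose from 11.3 ± 1.85 to 20.4 ± 4.76 CPM (0.85 ± 0.18). Its gene overlaps Neurl2 and Pltp. Of the genes fixed as cathepsin partners, 5 of 9 tested rose (55.6%) and 3 fell (33.3%), beside 39.3% and 35.3% of all tested genes. Glb1, the beta-galactosidase, rose from 322 ± 13.8 to 633 ± 142 CPM and Lamp1 from 3583 ± 13.8 to 5540 ± 1051 CPM, while Psap, the saposin precursor, fell from 1034 ± 17.8 to 561 ± 63.2 CPM. The cysteine protease legumain, Lgmn, which matures cathepsins, stood at 274 ± 45.5 against 299 ± 17.4 CPM and did not pass.

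Among the extracellular serpins, 10 of 13 tested members were higher, 1 was lower and 2 did not pass, with a median log2 fold change of 1.58. These are 76.9% higher and 7.69% lower, beside 39.3% and 35.3% of all tested genes. Serpine2, or protease nexin 1, which blocks thrombin and urokinase, rose from 42.2 ± 5.42 to 119 ± 29.1 CPM (1.50 ± 0.18), and Serping1, the C1 inhibitor of complement and contact activation, from 40.0 ± 3.36 to 125 ± 32.0 CPM (1.65 ± 0.18). Serpini1, or neuroserpin, rose by 1.44 ± 0.25 on the log2 scale. Serpinh1, the collagen chaperone and the most abundant serpin per kilobase here, rose from 339 ± 12.4 to 521 ± 95.6 CPM (0.62 ± 0.12, adjusted p = 0.000992 in edgeR).

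The clade A serpins lie in a cluster, and their changes differed between neighbours. Serpina10, the protein Z-dependent inhibitor of factor X, measured 7.52 (L4), 6.88 (R2), 8.17 (R3), 4.07 (R4) and 5.63 (R5) CPM against 0 to 0.955 CPM in the normal areas (3.99 ± 0.50, and 5.43 without normal L2). Next to it, Serpina6, the corticosteroid carrier of plasma, had 132 tumour counts and 1 normal count. It reached 2.92 (L4), 2.18 (R2), 8.71 (R3), 3.78 (R4) and 3.65 (R5) CPM, a pooled ratio of 94.2 (95% exact interval 16.6 to 3749). Serpina3b had 86 and 2 counts, a pooled ratio of 30.7 (8.24 to 257). The lone normal counts of Serpina6 and Serpina3b came from L2, and without that area the fitted log2 fold changes went from 6.04 to 7.65 and from 4.64 to 6.99, which depend on the prior count.

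The Serpina1 genes encode alpha-1-antitrypsin, the inhibitor of neutrophil elastase, in several near-identical copies. Serpina1b rose from 0.725 ± 0.258 to 4.40 ± 0.521 CPM (2.61 ± 0.25, adjusted p = 5.96e-06 in edgeR) and Serpina1c from 1.54 ± 0.489 to 4.52 ± 1.62 CPM (1.58 ± 0.34). Serpina1a fell, from 5.19 (L1), 4.09 (L2), 2.82 (R1) and 1.82 (R2) CPM to 0.418 (L4), 0.671 (R2), 1.45 (R3), 1.74 (R4) and 0.761 (R5) CPM (-1.78 ± 0.42, adjusted p = 0.00274 in edgeR). Its groups barely parted, and over areas with the letter R alone the change did not pass (-1.01, adjusted p = 0.0819 in edgeR). The most abundant copy, Serpina1d, stood at 36.1 ± 18.4 and 39.3 ± 8.90 CPM (adjusted p = 0.777 in edgeR), and Serpina1e had 1 count. The transcript of Serpina1a is 98.6% identical to that of Serpina1c over 1360 bases. How the authors' counting dealt with reads shared by copies is not given in the sources used here, so the split between these genes is uncertain. Serpina1f, a more distant gene of the cluster, did not pass, at 53.3 ± 18.7 against 77.9 ± 13.8 CPM (adjusted p = 0.0609 in edgeR), although DESeq2 called it lower.

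**Figure D4:**
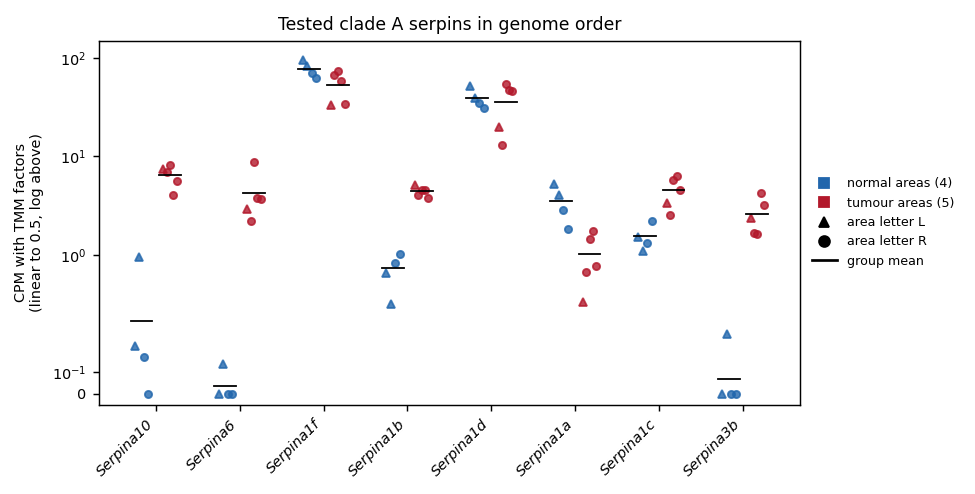
CPM of the 8 tested clade A serpins in genome order (axis linear to 0.5 CPM and logarithmic above), blue for the 4 normal and red for the 5 tumour areas, triangles for the area letter L, circles for R and black lines for group means. Serpina10, Serpina6, Serpina1b, Serpina1c and Serpina3b lie higher in the tumour areas, Serpina1a lower, and Serpina1f and Serpina1d overlap.

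Clade B serpins, most of which stay inside the cell, were hardly counted: 15 of 21 had no count and 1 could be tested. That member, Serpinb8, rose from 3.25 ± 1.03 to 6.99 ± 1.69 CPM with overlapping areas (1.09 ± 0.27, adjusted p = 0.00345 in edgeR). Over the whole set of 124 genes, 38 had no count and 35 had between 1 and 118 counts in all and were left untested, with a median of 6 counts. The counted but untested genes included Mmp9, the second gelatinase, with 11 (L4), 4 (R2), 4 (R3), 5 (R4) and 11 (R5) counts in the tumour and 2 to 4 in the normal areas. Serpina3c had 118 counts, 68 of them in tumour L4 alone. Adamts9 had 10 counts in all and Serpinf1 had 2. When the filter was dropped, edgeR called 9 of the untested genes, each of them higher: Mmp8, Mmp10, Mmp20, Adam5, Adamts20, Serpina3i, Serpinb1b, Serpinb7 and Serpinb9b. That fit called 3108 of 10063 genes higher and 2623 lower. Mmp8, the neutrophil collagenase, had 33 tumour and 2 normal counts (pooled ratio 11.8, 95% exact interval 3.01 to 101). Serpina3i and Serpinb9b each had 37 tumour counts and none in the normal areas, at least 8.80-fold higher when 3 counts over the normal group are taken as the limit. Tumour L4 held 22 of the 37 Serpinb9b counts and 14 of the 37 Serpina3i counts, and without it these limits were 4.60-fold and 7.05-fold.

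Urokinase, encoded by Plau outside the symbol rule, turns plasminogen into plasmin, a protease that can activate several MMP precursors. Plau measured 2107 (L4), 3264 (R2), 3115 (R3), 3053 (R4) and 2353 (R5) CPM in the tumour and 719 (L1), 703 (L2), 603 (R1) and 636 (R2) CPM in the normal areas. All tumour areas were higher, and here L4 and R5 were the 2 lowest of them (log2 fold change 2.06 ± 0.14, adjusted p = 6.78e-07 in edgeR). On the scale per kilobase Plau stood at 352 ± 29.1 CPM in normal areas, under Ctsb (982 ± 9.81 CPM per kb) and Ctsl (478 ± 13.9 CPM per kb). In the tumour areas its level per kilobase was 1470 ± 272 CPM, beside 1325 ± 109 CPM per kb for Ctsb, and the areas of the 2 genes overlapped. The urokinase receptor Plaur rose from 5.78 ± 0.806 to 17.1 ± 3.99 CPM (1.56 ± 0.19), while the tissue-type activator Plat, at 186 ± 40.2 against 210 ± 3.82 CPM, did not pass (adjusted p = 0.284 in edgeR).

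Of 15 inhibitors listed outside the symbol rule 7 could be tested, and 7 of 7 were higher, beside 39.3% of all tested genes. The list was made with earlier results of these data known, so its count is no independent test. Slpi, the secretory inhibitor of leukocyte elastase, rose from 0.568 ± 0.160 to 212 ± 88.7 CPM (8.50 ± 0.49, adjusted p = 2.42e-07 in edgeR), with tumour areas at 354 (L4), 195 (R2), 118 (R3), 166 (R4) and 227 (R5) CPM. A2m, alpha-2-macroglobulin, which traps proteases of all classes, rose from 0.766 ± 0.437 to 30.6 ± 11.0 CPM (5.32 ± 0.42). Spink6, a kallikrein inhibitor, had 639 tumour counts and 1 normal count (pooled ratio 456, 95% exact interval 81.6 to 18040). Cystatin C, Cst3, the secreted inhibitor of cysteine cathepsins, rose from 183 ± 5.35 to 462 ± 105 CPM (1.33 ± 0.15), and the leukocyte cystatin Cst7 from 0.391 ± 0.243 to 9.14 ± 4.17 CPM (4.48 ± 0.52).

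In the whole list of 71 related genes in the table, 52 could be tested. Of these 31 were higher (59.6%) and 16 lower (30.8%), beside 39.3% and 35.3% of all tested genes, with a median log2 fold change of 0.62. With each area left out in turn, 27 to 29 were higher and 14 to 16 lower. Hpse, the heparanase that cuts heparan sulphate in the matrix and is itself activated by Ctsl, rose from 1.34 ± 0.311 to 32.3 ± 10.7 CPM (4.60 ± 0.32). Bmp1, the procollagen C-proteinase, rose from 17.4 ± 2.28 to 53.0 ± 12.0 CPM (1.61 ± 0.18), and the related Tll1 fell from 7.87 ± 1.33 to 2.81 ± 0.816 CPM (-1.49 ± 0.22). Klk1, the tissue kallikrein of the kidney's connecting tubule, fell from 1535 ± 116 to 339 ± 178 CPM (-2.18 ± 0.40), with its lowest values in R2 (93.1 CPM) and L4 (209 CPM). Distal tubule and collecting duct markers, 5 of 6 lower and none at 0, summed to 1520 to 6838 CPM in the tumour and 10479 to 10740 CPM in the normal areas. Each of these markers was also lowest in R2 and then L4 of all areas, for example Calb1 (161 and 331 CPM) and Aqp2 (16.3 and 31.6 CPM). The part of these cells in the Klk1 change was not tested. Pcsk6, a proprotein convertase, was called lower, at 3.75 ± 2.02 against 7.79 ± 1.74 CPM, with overlapping areas (-1.07 ± 0.35, adjusted p = 0.0174 in edgeR). That call was lost without normal L2 (adjusted p = 0.0626 in edgeR), without L4 and R5, and over areas with the letter R alone (0.212). Tfpi2, a Kunitz inhibitor of plasmin that was listed under plasminogen activation and not among those 7 inhibitors, fell from 41.4 ± 3.55 to 22.1 ± 2.23 CPM (-0.91 ± 0.10). Of 2 growth factors released by ADAM proteases, Hbegf fell from 2.68 ± 0.525 to 0.732 ± 0.464 CPM (-1.86 ± 0.38), and Areg had 60 tumour counts and none in the normal areas (at least 14.3-fold higher with 3 counts as the limit).

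The tumour areas were not alike. L4 and R5 were the 2 highest tumour areas in 21 of the 51 tested members (41.2%), against 22.6% of all tested genes. Among genes called higher they were so in 16 of 34 members (47.1%) and in 35.1% of all such genes, and R4 was the lowest tumour area in 20 of 34 members (58.8%) and 39.0% of all such genes. By family, they were highest in 6 of 8 MMPs, 4 of 7 cysteine cathepsins, 3 of 10 extracellular serpins and 1 of 4 ADAMTS proteases called higher. Differences between families were not tested. The same 2 areas held most of the urothelial markers, 1064 CPM in L4 and 187 CPM in R5, where R2, R3 and R4 held 12.1 to 51.9 CPM and the normal areas 0.332 to 3.41 CPM, and of the adipocyte markers in the table, 144 and 31.8 CPM against at most 3.34 CPM in the other tumour areas. Without L4 and R5, 39 of the 41 called members could still be tested and 36 kept their call and direction. Adam11, Adamts3 and Mmp13 lost it. The part of these tissues in the spread between areas was not tested.

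**Figure D5:**
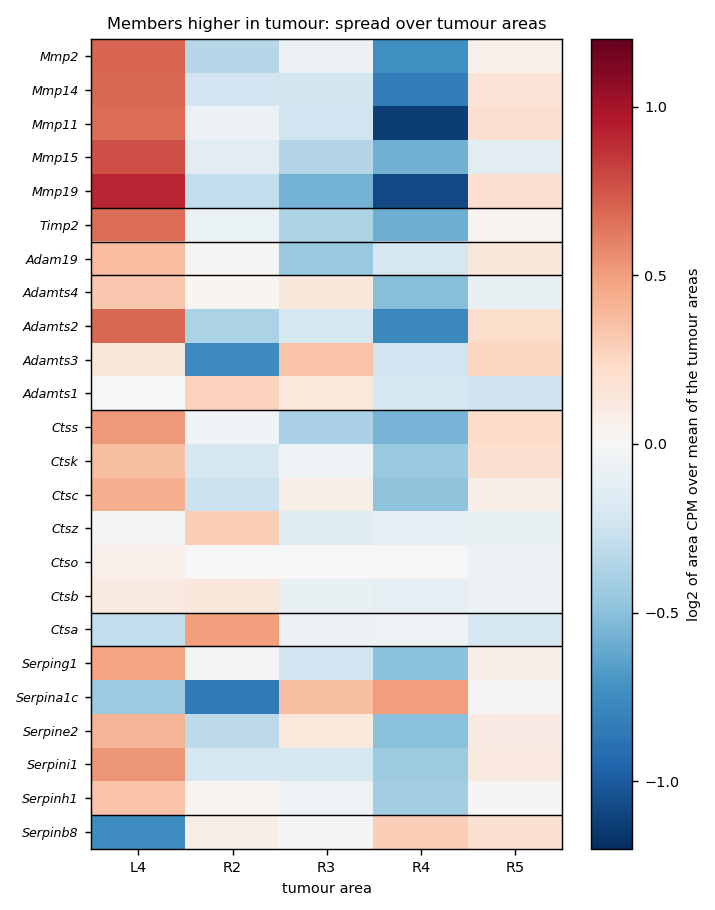
Heat map of the 24 members higher in the tumour areas that averaged at least 1 CPM in the normal areas, by tumour area. Colour is log2 of an area's CPM over the mean of the 5 tumour areas (red above, blue below), lines part the families, and the MMP block is reddest in L4 and bluest in R4.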

How the data were processed

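RNA was column-extracted, DNase-treated, poly(A)-selected and made into TruSeq libraries, per the labels' protocols. STAR 2.3, HTSeq, edgeR and the build mm9 are named in the submitters' processing notes. Neither annotation nor strand setting is given in the sources used here. The authors deposited raw read counts per gene, 1 column per area, and 14026 of 14052 identifiers matched a symbol (26 did not).

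Counts were fitted over the whole table with edgeR 4.0.16 (R 4.3.3; TMM, filterByExpr with a minimum count of 10, quasi-likelihood test), 5 tumour against 4 normal areas without covariates, with Benjamini-Hochberg adjustment over 7020 genes. On simulated data, the fit recovered 46.9% of 1.5-fold, 95.4% of 2-fold and 100% of 4-fold changes and made 8 calls of unchanged genes among 6581 genes. There, 64, 65 and 63 genes were changed by these folds, and all genes were given the same spread (dispersion). In the data 74.6% of tested genes passed, so these rates do not give the sensitivity of the real fit. Levels per kilobase divide CPM by the mean transcript length in GENCODE M21. Copies were searched with BLAST 2.17.0 (at least 95% identity over 100 bases). Intervals and limits cover counting error only. Other tools were DESeq2 1.42.0, Python 3.11.15, numpy 2.4.6, pandas 2.3.3, scipy 1.17.1 and matplotlib 3.10.9.

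Members and lists were chosen with earlier results of these data known. Named genes were 28 fixed members in the table, up to 3 called members with the largest change per family and direction (1 CPM or more on average where higher), and 5 related genes per direction. Further names were chosen with the values in view, to account for tested members and for the pathways. One tested member is counted but not reported here by itself. Alternatives were 17 in number: RLE or library size scaling, no filter, at least 1 CPM in 4 libraries, DESeq2, a covariate for the area letter, a fit on R areas alone, each area left out, and L4 and R5 left out together. For genes with no normal count, limits without each tumour area were added after the data were seen.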

Additional observations from a re-analysis of the deposited data

Results flagged for a closer look

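Within 1 group, single areas stood far from the others for the following genes. A rule of this kind marks about 1 in 20 groups by chance. Normal L2 had the lowest Serpinh1 (321 CPM, the other normal areas 344 to 348 CPM) and normal R1 the lowest Adam19 (12.0 CPM, the others 16.6 to 17.2 CPM) and the lowest Adamts6 (7.47 CPM, the others 9.41 to 9.72 CPM). Normal R2 had the highest Ctsb (2264 CPM, the others 2218 to 2222 CPM). Among the tumour areas, R2 had the highest Ctsa (28.7 CPM, the others 16.7 to 19.6 CPM) and the highest Ctsz (845 CPM, the others 623 to 682 CPM), and R3 had the highest Serpina6 (8.71 CPM, the others 2.18 to 3.78 CPM). Serpina6 in normal L2 (0.136 CPM), Serpina3b in normal L2 (0.273 CPM) and Spink6 in normal R1 (0.166 CPM) stand apart only because the other normal areas had no count, and each rests on 1 or 2 counts.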

How the results depend on the processing

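Of the 41 called members, 36 kept their call and direction under each of the 17 alternatives in which they could be tested, and 5 (Adam11, Mmp13, Adamts3, Serpina1a and Mmp19) lost it under at least 1. No called member reversed. With library size scaling alone, 1 ADAMTS-like gene was higher, 0 MMPs, 10 related genes and 2 members at least 2-fold were lower. Without a filter, 2 ADAM genes and 4 clade B serpins were higher and 0 MMPs lower. DESeq2 called 2 extracellular serpins lower. With the area letter as a covariate, 1 ADAMTS-like gene was higher and 0 MMPs lower, and over areas with the letter R alone 0 extracellular serpins were lower. With each area left out in turn, members called ran from 32 to 34 higher and 5 to 8 lower, ADAMTS-like genes higher from 0 to 1, extracellular serpins lower from 0 to 2 and MMPs lower from 0 to 1. The cause of these differences was not tested. With the longest transcript as length, the Ctsb share of summed cathepsin level, tumour areas, was 43.6%, the Ctsb share of summed cathepsin level, normal areas, 49.9%, and the Ctsl shares 8.53% and 13.2%.

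Estimates near 0 changed sign. Serpina1d was 0.15 with library size scaling, 0.28 over areas with the letter R, 0.047 without tumour L4, 0.098 without tumour R2 and 0.025 without normal L1, a range of -0.31 to 0.098 over areas left out. Ctsl was 0.29 with library size scaling, 0.085 without L4 and R5, 0.022 without L4, 0.018 without R4 and 0.046 without R5, a range of -0.049 to 0.046. Ctsf was 0.23 with library size scaling and 0.033 without L4 and R5. No paired analysis was possible because the groups share only the area name R2. At this depth most of the 35 counted but untested members cannot be compared. Changes of 1.5-fold were often missed in simulation, but far fewer genes were changed there than passed in the data. How often such changes were missed in the data is therefore not known.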
